A study of Mus musculus with 9 samples.

Results

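The CCN family comprises 6 secreted matricellular proteins, proteins that sit in the extracellular matrix and signal to cells without being structural parts of it. The 6 genes were found in the count table by name, under the older symbols Ctgf (CCN2), Cyr61 (CCN1), Wisp2 (CCN5), Wisp1 (CCN4), Nov (CCN3) and Wisp3 (CCN6). They are 6 of 24964 genes in the table, and 5 of the 6 passed a filter on low counts that left 14347 genes for testing. Wisp3 did not pass it.

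The data are bulk RNA-seq counts from heart tissue of 9 male mice of the C57BL/6JR strain (as the labels spell it), aged 8 weeks, in 3 groups of 3, for which the labels name no genetic change. Hearts were taken 28 d or 7 d after permanent ligation of the left anterior descending coronary artery, which causes a myocardial infarction (MI), or after a sham operation with the same surgery but no ligation. The labels give the tissue only as heart, so scar and surviving muscle cannot be told apart, and they do not say when the sham hearts were collected. Libraries held 15300344 to 15770389 counts at MI 28 d, 18355720 to 19238101 at MI 7 d and 12351525 to 13629120 in sham.

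CCN proteins are built from modules that resemble insulin-like growth factor binding proteins, the von Willebrand factor type C repeat, the thrombospondin type 1 repeat and a carboxy-terminal cystine knot. They bind integrins, heparan sulphate proteoglycans and LRP receptors, and they also bind growth factors such as TGF-beta and BMPs. In the heart, CTGF is known as a target of TGF-beta and of the YAP/TEAD complex in fibroblasts and stressed cardiomyocytes. CYR61 is an immediate early protein of injured tissue, WISP1 was found as a gene induced by Wnt1, NOV is known from vascular cells, and WISP2, which lacks the cystine knot, has been described as an opponent of CTGF in fibrosis.

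All 6 genes are protein-coding on GRCm38, the assembly also called mm10, by the GENCODE vM21 annotation. Ctgf lies at chr10:24595442-24598683 on the plus strand, with 4 exons in its longest coding transcript. Cyr61 lies at chr3:145646976-145649981 on the minus strand, Wisp2 at chr2:163820861-163833146, Wisp1 at chr15:66891320-66923201 and Nov at chr15:54745702-54754039, the last 3 on the plus strand. Wisp3 lies at chr10:39150970-39163794 on the minus strand. These 5 genes have 5 exons each in the longest coding transcript. The counts cover whole genes. The antisense gene Gm15270 overlaps exons of Ctgf and Tube1 overlaps exons of Wisp3, and because the strand setting of the counting is not given in the sources used here, reads of either partner cannot be told apart. Tube1 had between 12 and 48 counts in a library, and Gm15270 was not analysed here.

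Promoter sequences were matched for 2 of the 6 genes in RefSeq's annotation of GRCm38.p6, for Cyr61, which was read in every library, and for Wisp3, which was hardly read at all. The 250 bases before each start site are shown 5′ to 3′ on the minus strand, from chr3:145649986-145650235 for Cyr61 and chr10:39163795-39164044 for Wisp3. This pair is shown because no other member had a matched sequence. Any part of these sequences in the levels of the 2 genes was not tested. Capitals mark the letters GGAATG of the TEAD motif on either strand.
Cyr61: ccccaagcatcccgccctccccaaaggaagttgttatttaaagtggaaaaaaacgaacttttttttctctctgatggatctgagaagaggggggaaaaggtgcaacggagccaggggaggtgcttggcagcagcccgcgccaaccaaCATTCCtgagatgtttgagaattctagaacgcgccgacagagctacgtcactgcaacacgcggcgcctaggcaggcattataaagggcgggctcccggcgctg
Wisp3: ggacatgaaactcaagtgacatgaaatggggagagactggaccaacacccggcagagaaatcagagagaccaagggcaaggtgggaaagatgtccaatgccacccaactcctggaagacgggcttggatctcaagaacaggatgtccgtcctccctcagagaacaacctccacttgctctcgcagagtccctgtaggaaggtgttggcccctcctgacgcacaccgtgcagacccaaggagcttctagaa
The Cyr61 sequence held 1 TEAD match, read as CATTCC, that begins 103 bases before the start site, and the Wisp3 sequence held 0. Of 32851 promoters of the same length, 12.6% held this motif. Each of the 2 sequences held 1 match to TGACG, the core of the cyclic AMP response element, found in 17.8% of promoters on either strand. Neither held TGANTCA, the AP-1 motif (6.75% of promoters), nor a CArG box, the motif of serum response factor (1.47% of promoters). No pair of these motifs overlapped in the 2 sequences.

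Some libraries stood apart from the rest of their group. Adipoq, an adipocyte hormone, was at 122 to 217 CPM in MI 28 d replicates 1 and 3 and MI 7 d replicate 3, against 0.423 to 3.12 CPM in the other 6 libraries. CPM is the usual unit of counts scaled to a fixed library total, here after TMM scaling. The common biological coefficient of variation was 24.2% at MI 28 d, 17% at MI 7 d and 2.73% in sham. The summed CPM of 10 cardiomyocyte markers was 47380 to 81360 at MI 28 d, 20930 to 26430 at MI 7 d and 137900 to 142100 in sham, with none of the 10 at 0 in any library, so heart muscle was present throughout. In bulk tissue, fewer cells of a type and less RNA per cell cannot be told apart.

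Against sham hearts, all 5 tested CCN genes were higher both at 28 d and at 7 d after infarction, and all 5 were lower at 28 d than at 7 d. These are calls by edgeR's quasi-likelihood test at a Benjamini-Hochberg adjusted p under 0.05 over all 14347 tested genes. Among all tested genes 29.5% were higher at MI 28 d than in sham, 39.0% were higher at MI 7 d than in sham, and 26.1% were lower at MI 28 d than at MI 7 d. In either direction 55.1% were called at MI 28 d against sham, 74.4% at MI 7 d against sham and 55.2% at MI 28 d against MI 7 d. The median log2 fold change of the 5 genes was 2.86 at MI 28 d against sham, 3.89 at MI 7 d against sham and -1.34 at MI 28 d against MI 7 d, beside medians over all tested genes of 0.05, 0.06 and 0.03. The first 2 comparisons share the sham libraries, and the third shares the infarct libraries with both.

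**Figure D1:**
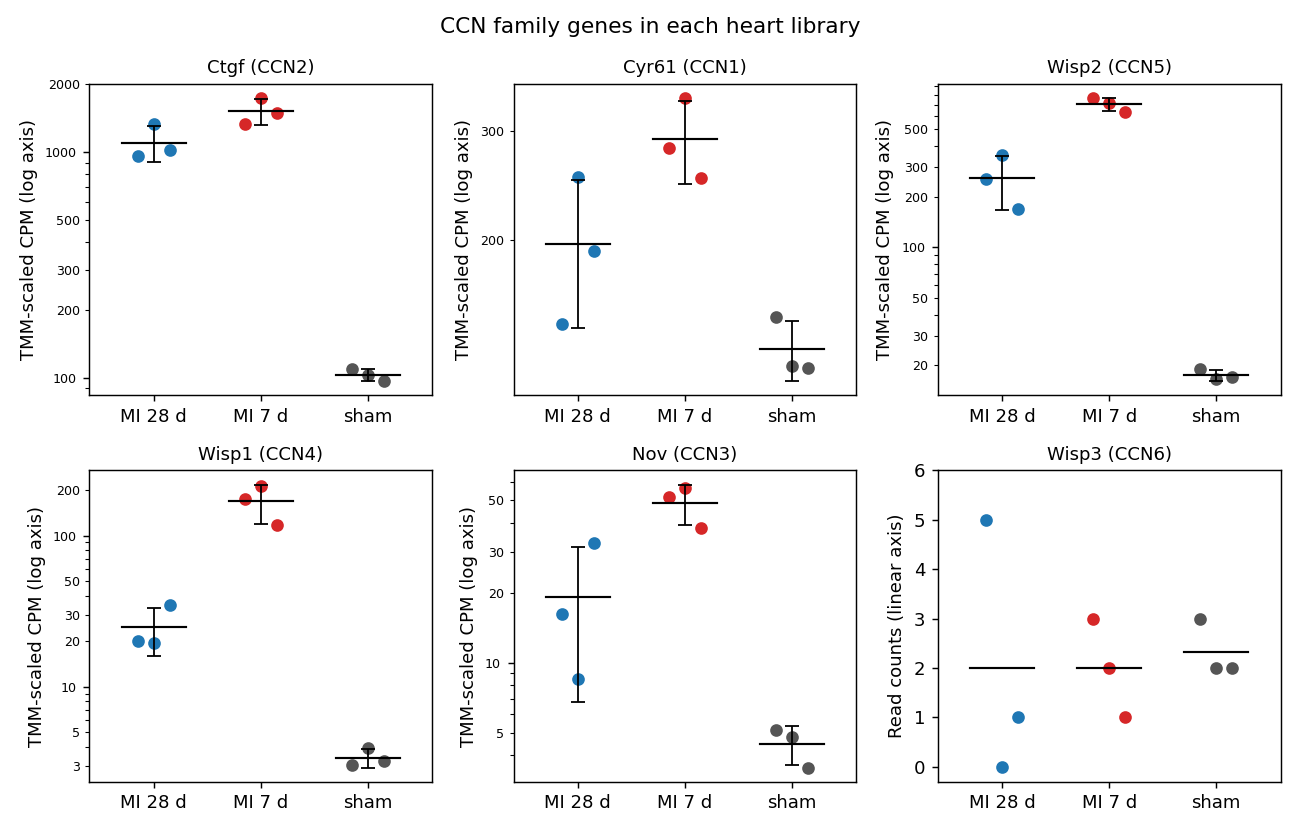
TMM-scaled CPM of 5 CCN genes on log axes and read counts of Wisp3 on a linear axis, with 1 point per library in the order of replicates 1 to 3 and the mean (long bar) ± SD (short bars, not drawn for Wisp3) of 3 libraries per group. Ctgf, Wisp2, Wisp1 and Nov do not overlap between any of the 3 groups, Cyr61 overlaps between MI 28 d and each of the other groups, and Wisp3 lies between 0 and 5 counts everywhere. The share of all tested genes without such overlap was not computed, so the lack of overlap is not shown to be particular to these genes.

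Ctgf encodes CTGF, the member best known for its link to scarring. Ctgf stood at 962.1, 1331 and 1018 CPM in the MI 28 d hearts, 1334, 1743 and 1493 CPM in the MI 7 d hearts and 109.2, 103 and 97.01 CPM in the sham hearts. All 6 infarct hearts lay far above the 3 sham hearts, and the highest 28 d heart came within a few CPM of the lowest 7 d heart. The mean was 1104 ± 199 CPM at MI 28 d, against 103.1 ± 6.11 CPM in sham (SD, n = 3 each), a log2 fold change of 3.42 ± 0.16 (SE, 10.7-fold, edgeR adjusted p = 1.35e-06). At MI 7 d it was 1523 ± 206 CPM, 14.8-fold above sham (log2 fold change 3.89 ± 0.16, edgeR adjusted p = 9.19e-08). A log2 increase as large as that of Ctgf at MI 28 d against sham or larger was seen for 298 of the 14347 tested genes.

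Ctgf kept most of its 7 d level. Its mean at MI 28 d was 72.5% of that at MI 7 d, a log2 fold change of -0.46 ± 0.15 (edgeR adjusted p = 0.0217). Without the 3 Adipoq-rich libraries, which leaves 1 library at MI 28 d whose spread is then taken from the other groups, it was -0.21 and did not pass (edgeR adjusted p = 0.263). It also did not pass without MI 7 d replicate 2 (log2 fold change -0.36, edgeR adjusted p = 0.0821) or without MI 28 d replicate 1 (-0.38, edgeR adjusted p = 0.0575).

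Cyr61 encodes CYR61, a protein of injury and angiogenesis whose gene is an immediate early gene. Cyr61 was at 146.6, 252.2 and 192.2 CPM at MI 28 d, 281.1, 338.7 and 251.3 CPM at MI 7 d and 150.2, 125.5 and 124.2 CPM in sham. MI 7 d hearts lay above every sham heart, while MI 28 d replicate 1 lay within the sham range and MI 28 d replicate 2 just above the lowest 7 d heart. The mean was 290.4 ± 44.4 CPM at MI 7 d, against 133.3 ± 14.7 CPM in sham (SD, n = 3 each), a log2 fold change of 1.12 ± 0.19 (SE, 2.18-fold, edgeR adjusted p = 0.00043). This was the smallest change of the 5 genes at 7 d, and 38.2% of all tested genes had a larger absolute log2 fold change in that comparison.

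Cyr61 averaged 197 ± 52.9 CPM at MI 28 d, 1.48-fold above sham, with a log2 fold change of 0.56 ± 0.19 (edgeR adjusted p = 0.0297). The call did not hold without MI 28 d replicate 2, sham replicate 2 or sham replicate 3 (log2 fold changes 0.34, 0.51 and 0.50, edgeR adjusted p = 0.113, 0.0973 and 0.102), and the log2 fold change was 0.91 without the Adipoq-rich libraries (edgeR adjusted p = 0.00027). Against MI 7 d the log2 fold change at MI 28 d was -0.56 ± 0.19 (edgeR adjusted p = 0.0297). That call was lost without the Adipoq-rich libraries (log2 fold change -0.30, edgeR adjusted p = 0.11) and without MI 7 d replicates 1 or 2 or MI 28 d replicates 1 or 3 (-0.58, -0.44, -0.39 and -0.54, edgeR adjusted p = 0.0575, 0.107, 0.0692 and 0.0501).

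Wisp2 encodes WISP2, the member without the cystine knot. Wisp2 stood at 255.7, 351.2 and 168.5 CPM at MI 28 d, 764, 718.7 and 638.3 CPM at MI 7 d and 19.02, 16.55 and 16.99 CPM in sham. The 3 groups were apart from each other, with the 28 d hearts more spread than the others. Means were 258.5 ± 91.4 CPM at MI 28 d, 707 ± 63.6 CPM at MI 7 d and 17.52 ± 1.32 CPM in sham (SD, n = 3 each). Wisp2 was 14.7-fold above sham at MI 28 d (log2 fold change 3.88 ± 0.25, edgeR adjusted p = 7.72e-06) and 40.3-fold above sham at MI 7 d (5.33 ± 0.26, edgeR adjusted p = 2e-07). Its increase at MI 28 d was the largest of the 5 genes, with 222 of the tested genes at or above it. From MI 7 d it fell by 1.45 ± 0.22 on the log2 scale at MI 28 d (edgeR adjusted p = 0.000425).

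Wisp1 encodes WISP1, a protein of proliferating fibroblasts and osteoblasts that binds the proteoglycans decorin and biglycan. Wisp1 was at 20.04, 19.42 and 34.7 CPM at MI 28 d, 174.8, 214 and 116.9 CPM at MI 7 d and 3.054, 3.954 and 3.211 CPM in sham. Here the infarct groups were far apart, and the lowest 7 d heart lay above the highest 28 d heart. Wisp1 averaged 168.6 ± 48.8 CPM at MI 7 d, against 3.406 ± 0.481 CPM in sham (SD, n = 3 each), a 49.5-fold difference (log2 fold change 5.63 ± 0.33, edgeR adjusted p = 4.81e-07). Of the 14347 tested genes, 108 rose as much or more in that comparison. At MI 28 d the mean was 24.72 ± 8.65 CPM, still 7.27-fold above sham (log2 fold change 2.86 ± 0.32, edgeR adjusted p = 0.000137).

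Wisp1 lost more of its 7 d level than any other member. Its mean at MI 28 d was 14.7% of that at MI 7 d, against 36.6% for Wisp2, 39.4% for Nov, 67.8% for Cyr61 and 72.5% for Ctgf. These shares include the sham level, which is a large part of the level of Cyr61. Of the 7 d rise over sham, 12.9% was present at MI 28 d for Wisp1. That share was 35.0% for Wisp2, 33.2% for Nov, 40.5% for Cyr61 and 70.5% for Ctgf. The log2 fold change of Wisp1 at MI 28 d against MI 7 d was -2.77 ± 0.27 (edgeR adjusted p = 3.44e-05). It stayed between -3.33 and -2.56 and past the threshold under all 19 alternatives.

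Nov encodes NOV, which restrains proliferation of vascular smooth muscle and is made by endothelial, smooth muscle and neural cells. Nov was at 16.26, 8.499 and 32.79 CPM at MI 28 d, 51.53, 56.69 and 37.97 CPM at MI 7 d and 5.147, 4.782 and 3.549 CPM in sham. The groups did not overlap, but the 28 d hearts spread almost from the sham level to the 7 d level, with a coefficient of variation of 64.7%, the largest of the 5 tested genes in any group. Nov averaged 48.73 ± 9.67 CPM at MI 7 d, against 4.493 ± 0.837 CPM in sham (SD, n = 3 each), 10.8-fold (log2 fold change 3.44 ± 0.45, edgeR adjusted p = 6.88e-05).

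Nov averaged 19.18 ± 12.4 CPM at MI 28 d, 4.28-fold above sham (log2 fold change 2.10 ± 0.45, edgeR adjusted p = 0.00331). The call was lost with the sham libraries summed to 1 library (2.07, edgeR adjusted p = 0.0693). The size rests on MI 28 d replicates 1 and 3. It was 0.91 on the log2 scale without the Adipoq-rich libraries (edgeR adjusted p = 0.00329) and 1.46 without MI 28 d replicate 3 (edgeR adjusted p = 0.00266). Against MI 7 d the log2 fold change at MI 28 d was -1.34 ± 0.39 (edgeR adjusted p = 0.0147), and it was -2.67 without the Adipoq-rich libraries and -1.98 without MI 28 d replicate 3 (edgeR adjusted p = 1.95e-06 and 0.000145).

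Wisp3 encodes WISP3, known for its role in human skeletal growth. Wisp3 had 5, 0 and 1 counts in the MI 28 d libraries, 3, 2 and 1 in the MI 7 d libraries and 3, 2 and 2 in the sham libraries. The limit that a count of 0 allows, 3 counts, lies at 0.174 to 0.199 CPM at MI 28 d, 0.144 to 0.149 CPM at MI 7 d and 0.254 to 0.276 CPM in sham, so no difference was detectable at this depth. These limits cover counting error only.

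**Figure D2:**
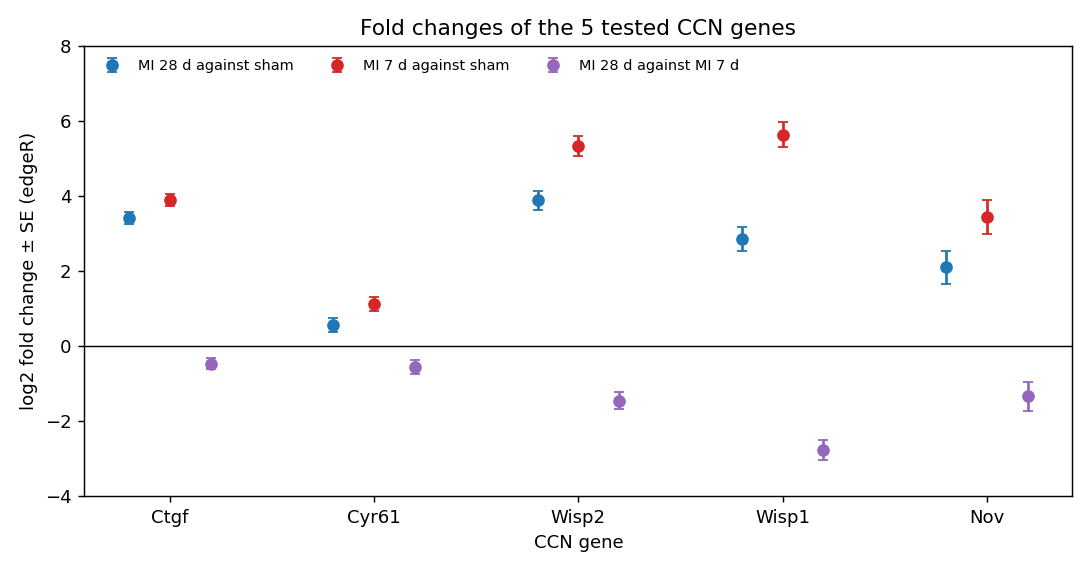
Log2 fold change ± SE by edgeR for the 5 tested CCN genes, with MI 28 d against sham in blue, MI 7 d against sham in red and MI 28 d against MI 7 d in purple. Each gene is above 0 against sham at both times and below 0 at 28 d against 7 d, and the gap between the blue and red points is widest for Wisp1 (2.86 against 5.63) and narrowest for Ctgf (3.42 against 3.89).

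To compare levels between genes, CPM were divided by the length in kilobases of the longest coding transcript. At MI 28 d the order was Ctgf at 443.3 ± 79.85 CPM per kilobase, Wisp2 at 150.4 ± 53.16, Cyr61 at 97.57 ± 26.23, Nov at 6.686 ± 4.324, Wisp1 at 4.85 ± 1.697 and Wisp3 at 0.09155 ± 0.1249 CPM per kilobase (SD, n = 3). The ranges of Wisp2 and Cyr61 overlapped there, as did those of Nov and Wisp1. Within each library Wisp2 was above Cyr61, at 148.7 against 72.61, 204.3 against 124.9 and 98.02 against 95.2 CPM per kilobase in replicates 1 to 3. With the union of all exons as the length, replicate 3 had the opposite order (87.58 against 95.2). Nov was above Wisp1 in replicates 1 and 3 and below it in replicate 2 (2.962 against 3.81), so that pair had no fixed order.

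Ctgf also had the highest level at MI 7 d, 611.8 ± 82.8 CPM per kilobase, and Wisp2 was next at 411.3 ± 37.03, ahead of Cyr61 at 143.8 ± 22.01, Wisp1 at 33.07 ± 9.584, Nov at 16.99 ± 3.37 and Wisp3 at 0.06846 ± 0.03391 CPM per kilobase, with no overlap between neighbours. In sham hearts Cyr61 had the highest level of the family, 66.02 ± 7.256 CPM per kilobase, followed by Ctgf at 41.39 ± 2.448, Wisp2 at 10.19 ± 0.7665, Nov at 1.566 ± 0.2919, Wisp1 at 0.6683 ± 0.09432 and Wisp3 at 0.1444 ± 0.03508 CPM per kilobase. No neighbours in this order overlapped either. The order of the means was the same with the union of all exons as the length.

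The make-up of the family differed between infarcted and sham hearts. Ctgf held 63.29 ± 2.337% of the summed CPM per kilobase of the 6 genes at MI 28 d and 50.22 ± 3.928% at MI 7 d, against 34.56 ± 1.251% in sham (SD, n = 3). Cyr61 held 13.82 ± 1.852% at MI 28 d and 11.78 ± 0.73% at MI 7 d, against 54.96 ± 1.357% in sham. Wisp2 held 21.12 ± 4.615% at MI 28 d and 33.92 ± 3.584% at MI 7 d, against 8.502 ± 0.2583% in sham. Infarct and sham hearts did not overlap in any of these 3 shares.

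**Figure D3:**
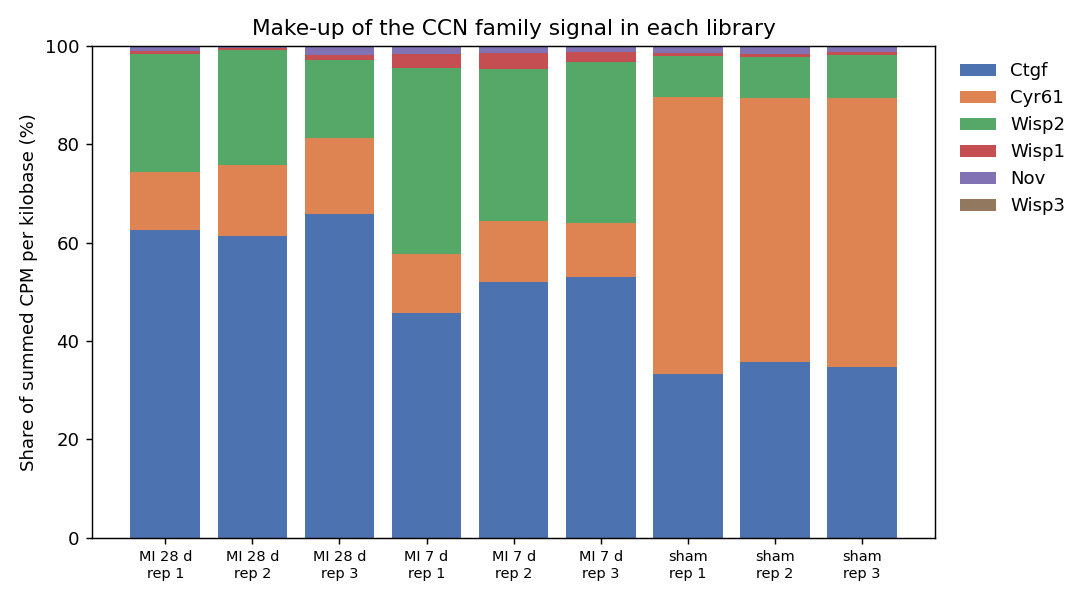
Share in percent of each CCN gene in the summed CPM per kilobase of the 6 genes, with 1 stacked bar per library. Cyr61 (orange) holds 53.71 to 56.41% of each sham bar and 11 to 15.35% of each infarct bar, where Ctgf (blue) and Wisp2 (green) hold most.

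Ratios of counts within a library do not depend on scaling. There were 5.28 to 6.56 counts of Ctgf per count of Cyr61 at MI 28 d and 4.75 to 5.94 at MI 7 d, against 0.727 to 0.821 in sham. The groups of infarct libraries overlapped with each other and not with sham. The counts of Ctgf per count of Wisp1 were 29.3 to 68.5 at MI 28 d and 7.63 to 12.8 at MI 7 d, against 26 to 35.8 in sham, so that MI 7 d stood apart from both others. For Wisp2 per count of Wisp1, the ranges were 4.85 to 18.1 at MI 28 d, 3.36 to 5.46 at MI 7 d and 4.19 to 6.23 in sham, which overlapped. In 9 two-sided exact permutation tests on log2 ratios (these 3 ratios in 3 comparisons), p was 0.1 where the groups did not overlap, the smallest that 3 against 3 libraries allow, or 0.225 after Benjamini-Hochberg adjustment.

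Marker genes of several cell types moved along with the family. The summed CPM of 10 activated fibroblast markers, which include Postn and Col1a1, was 4210 to 6548 at MI 28 d, 28750 to 38160 at MI 7 d and 1135 to 1184 in sham, and all 10 were higher than in sham at both times. For 10 resting fibroblast markers it was 4061 to 4647 at MI 28 d, 3354 to 4025 at MI 7 d and 2587 to 2725 in sham. The largest member of that sum by mean was Gsn, the actin-severing protein gelsolin, in each group. It averaged 2589 ± 290 CPM at MI 28 d and 913.1 ± 349 CPM at MI 7 d, against 1838 ± 72.3 CPM in sham (SD, n = 3 each). At MI 7 d the other members together made up more of the sum than Gsn. By gene, 6 of the 10 were higher and 0 lower at MI 28 d than in sham, and 7 were higher and 2 lower at MI 7 d than in sham. At MI 28 d against MI 7 d, 3 were higher and 5 lower, beside 29.1% and 26.1% of all tested genes. Between the times this list was thus mixed, and its sums were higher at MI 28 d. For 10 macrophage markers the summed CPM was 978.7 to 1552 at MI 28 d, 4605 to 5677 at MI 7 d and 550.9 to 621.6 in sham. No gene of these 3 lists was at 0 in any library. Activated fibroblast and macrophage markers thus had the same order of groups as the 5 CCN genes, with the highest sums at 7 d.

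The sums of endothelial, mural and neural markers, which bear on Nov, did not have that order of groups. The summed CPM of 10 endothelial markers was 771.6 to 1516 at MI 28 d, 1100 to 1269 at MI 7 d and 2402 to 2508 in sham. That of 10 smooth muscle and pericyte markers was 1272 to 1797 at MI 28 d, 2282 to 2435 at MI 7 d and 2269 to 2355 in sham. By gene, 5 of these 10 were higher and 4 lower than in sham at each time, so the sum joins members that moved in opposite directions. At MI 28 d against MI 7 d, 1 was higher and 4 were lower. Schwann cell and neuron markers, 10 genes with up to 3 at 0 in a library, summed to 111.1 to 299.1 CPM at MI 28 d, 83.32 to 105 at MI 7 d and 30 to 34.67 in sham. Of the 8 tested, 3 were higher and 1 lower at MI 28 d, and 4 were higher and 3 lower at MI 7 d, each against sham. The part of changed cell numbers in the CCN results was not tested.

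Among the 28 d hearts, the library with the most Nov and Wisp1 was replicate 3, and the library with the most Ctgf, Cyr61 and Wisp2 was replicate 2. In replicates 1 to 3 the sum of 9 epicardial and mesothelial markers was 141.7, 169.2 and 867.9 CPM, that of the Schwann cell and neuron markers 111.1, 160.8 and 299.1 CPM and that of the cardiomyocyte markers 81360, 61860 and 47380 CPM. The epicardial sum was 62.4 to 187.6 CPM at MI 7 d and 22.25 to 25.1 CPM in sham, where up to 2 of its genes were at 0. Their part in the spread of Nov and Wisp1 was not tested. The adipocyte list summed to 2489 to 5782 CPM at MI 28 d, 1209 to 3681 at MI 7 d and 8332 to 8724 in sham, where Adipoq itself was at 0.423 to 1.75 CPM. Most of that sum is Lpl, a lipase that heart muscle also makes, at 2762 ± 1230 CPM at MI 28 d and 1172 ± 179 CPM at MI 7 d, against 7912 ± 205 CPM in sham (SD, n = 3 each), and Lpl was the member called lower at both times. Of the 10 genes 3 were higher at MI 28 d and 4 at MI 7 d than in sham, with list medians of 6.16 and 5.53 on the log2 scale. These medians do not describe every infarct heart. In replicates 1 to 3, Adipoq was at 130, 0.496 and 122 CPM at MI 28 d and 0.529, 3.12 and 217 CPM at MI 7 d. Up to 1 of the 10 genes in the list was at 0 in a library.

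**Figure D4:**
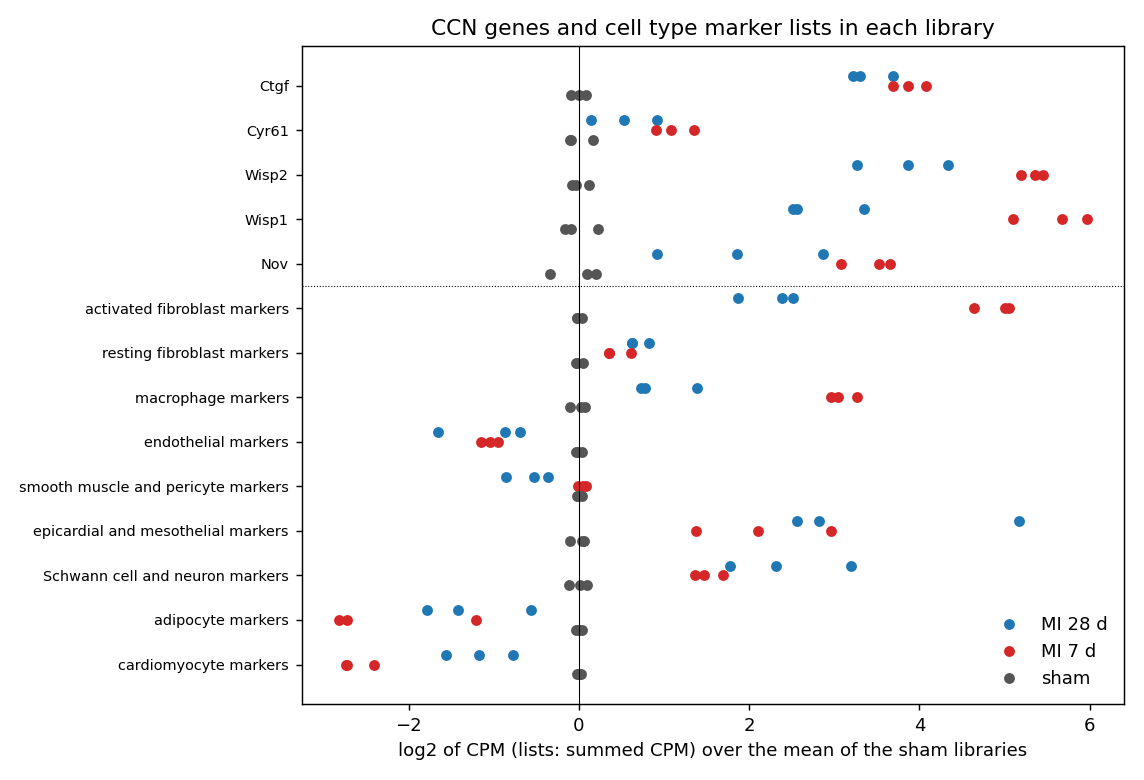
Log2 of each library's CPM (CCN genes, above the dotted line) or summed CPM (marker lists, below it) over the mean of the sham libraries, with 3 points per group. Wisp2, Wisp1, Nov and the activated fibroblast and macrophage lists have all MI 7 d points to the right of the other groups in the same row. The cardiomyocyte list has all MI 7 d points to the left of the other groups in its row. Ctgf has MI 28 d replicate 2 level with the lowest MI 7 d point (both 3.69), and Cyr61 has MI 28 d replicate 2 (0.92) level with the lowest MI 7 d point (0.91).

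For each CCN gene, the genes with the most similar course were named by the smallest root mean square difference of log2 CPM, each gene centred on its own mean over the 9 libraries, among 12074 candidates. Ctgf was most like Ncam1, a neural cell adhesion molecule (0.20), Cxcl10, an interferon-induced chemokine (0.21), and Cxcr6, a chemokine receptor (0.24). Wisp2 was most like Mfap4, a microfibril-associated glycoprotein (0.26), Ltbp2, a latent TGF-beta binding protein family member (0.35), and Nox4, an NADPH oxidase (0.36). Wisp1 was most like Cdh3, which encodes P-cadherin (0.28), Fn1, which encodes fibronectin (0.33), and Col1a2, a chain of type I collagen (0.34). The same 3 genes were found for each member with another prior count.

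Nov and Cyr61 had neighbours of other kinds. Nov was most like Stxbp2, a protein of vesicle fusion (0.28), Cacnb3, a calcium channel beta subunit (0.30), and Myof, a membrane repair protein (0.34). Cyr61 was most like Ccdc8 (0.13), Mn1 (0.14) and Cdk9, a kinase of transcription elongation (0.15). Within the family, the smallest such difference was 0.65, between Ctgf and Wisp2, and the largest was 1.84, between Cyr61 and Wisp1.

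The genes around the family were taken from 7 lists. Over all tested genes, 25.6% were lower at MI 28 d than in sham, 35.4% were lower at MI 7 d than in sham and 29.1% were higher at MI 28 d than at MI 7 d. Of 12 CCN receptors and co-receptors, 9 were higher and 1 lower at MI 28 d than in sham, and 9 were higher and 0 lower at MI 7 d than in sham. With summed sham libraries, 5 were higher at MI 28 d. The median log2 fold changes were 0.93 and 1.29, beside 0.05 and 0.06 over all tested genes. The integrin subunit gene Itgb3 was 2.54-fold higher at MI 28 d (log2 fold change 1.34 ± 0.25, edgeR adjusted p = 0.00169) and 7.1-fold higher at MI 7 d (2.83 ± 0.25, edgeR adjusted p = 4.69e-06). Lrp1, a large endocytic receptor that binds CTGF, was 2.53-fold higher at MI 28 d (log2 fold change 1.34 ± 0.13, edgeR adjusted p = 5.58e-05). Itgb2, a subunit of leukocyte integrins, was 10.7-fold higher at MI 7 d (log2 fold change 3.42 ± 0.18, edgeR adjusted p = 2.67e-07). The single lower gene at 28 d was Itga6, a laminin receptor subunit (log2 fold change -0.78, edgeR adjusted p = 0.00261), named after its value was seen.

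Of 13 growth factors and matrix proteins that CCN proteins bind, 8 were higher and 2 lower at MI 28 d, and 9 were higher and 2 lower at MI 7 d, each against sham (median log2 fold changes 1.75 and 1.55). Tnfrsf11b, which encodes osteoprotegerin, was 23.5-fold higher at MI 28 d (log2 fold change 4.55 ± 0.50, edgeR adjusted p = 0.000121) and 45.2-fold higher at MI 7 d (5.50 ± 0.49, edgeR adjusted p = 5.09e-06). Bmp2, a bone morphogenetic protein, was 9.06-fold higher at MI 28 d (log2 fold change 3.18 ± 0.20, edgeR adjusted p = 7.72e-06). Fn1 was 38.1-fold higher at MI 7 d (log2 fold change 5.25 ± 0.33, edgeR adjusted p = 6.7e-07). The lower genes at both times were Bmp7, at log2 fold changes of -1.58 (MI 28 d) and -2.59 (MI 7 d), and Vegfa, the main endothelial growth factor, at -0.59 (MI 28 d) and -2.27 (MI 7 d), both named after their values were seen.

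TGF-beta acts upstream of Ctgf in many cells. Of 12 TGF-beta receptors, SMADs and direct targets, 10 were higher at MI 28 d and 9 at MI 7 d than in sham, and 0 were lower at either time (median log2 fold changes 0.98 and 1.32). With summed sham libraries, 6 were higher at MI 28 d. Ltbp2 was 19.4-fold higher at MI 28 d and 64.2-fold higher at MI 7 d (log2 fold changes 4.28 and 6.00, edgeR adjusted p = 3.14e-06 and 8.56e-08). Tgfb3, a TGF-beta ligand, was 4.58-fold higher at MI 28 d and 13.9-fold higher at MI 7 d (log2 fold changes 2.20 and 3.80, edgeR adjusted p = 3.11e-05 and 2.62e-07).

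In the Hippo pathway, a kinase cascade restrains the coactivators YAP and TAZ, which act on TEAD factors. Of 15 genes of this pathway, 3 were higher and 2 lower at MI 28 d, and 8 were higher and 4 lower at MI 7 d, each against sham (median log2 fold changes 0.16 and 0.34). With library size alone as the scaling, which moves the median of all genes up by 0.25 at MI 28 d and 0.33 at MI 7 d against sham, 11 were higher and 0 lower at MI 28 d. The MI 28 d counts were 0 higher and 0 lower by edgeR with summed sham libraries, 6 higher and 1 lower with only the compared groups, and 5 higher and 1 lower without MI 7 d replicate 1. The number lower was 0 or 1 under most other alternatives. Yap1 averaged 168.9 ± 10.4 CPM at MI 28 d and 102.8 ± 3.91 CPM at MI 7 d, against 166.5 ± 2.84 CPM in sham (SD, n = 3 each). Wwtr1, which encodes TAZ, averaged 143.7 ± 7.1 CPM at MI 28 d and 126.7 ± 1.53 CPM at MI 7 d, against 140.9 ± 1.02 CPM in sham. Yap1 was lower at MI 7 d than in sham (log2 fold change -0.70, edgeR adjusted p = 1.67e-05), and Wwtr1 did not pass there (-0.15, edgeR adjusted p = 0.0603), where library size alone as the scaling gave 0.18.

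The TEAD genes did not move as a group at 7 d. Tead1 averaged 281.4 ± 39.2 CPM at MI 28 d and 178.2 ± 32.7 CPM at MI 7 d, against 345.6 ± 7.81 CPM in sham. It was lower at MI 7 d (log2 fold change -0.96, edgeR adjusted p = 0.000172), as was Tead4 (-0.99, edgeR adjusted p = 0.000805). Tead2 and Tead3 were higher at MI 7 d (log2 fold changes 1.84 and 0.90, edgeR adjusted p = 1.84e-05 and 0.000752). At MI 28 d against sham, Tead4 passed the test (log2 fold change -0.49, edgeR adjusted p = 0.0461), a call lost under 16 of the 19 alternatives, and Tead1, Tead2 and Tead3 did not (edgeR adjusted p = 0.0999, 0.0695 and 0.178).

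YAP/TEAD targets other than the CCN genes numbered 20, of which 19 were tested. Of these 13 were higher and 1 lower at MI 28 d, and 12 were higher and 3 lower at MI 7 d, each against sham (median log2 fold changes 0.56 and 0.99). Ankrd1, a stress protein of the cardiomyocyte sarcomere and nucleus, was 5.48-fold higher at MI 28 d (9465 ± 1710 CPM, against 1727 ± 154 CPM in sham, log2 fold change 2.45, edgeR adjusted p = 1.21e-05). Tgfb2 was 7.67-fold higher at MI 28 d and 7.06-fold higher at MI 7 d (log2 fold changes 2.94 and 2.82, edgeR adjusted p = 1.08e-06 and 1.02e-07). Fjx1, a secreted kinase-like protein, was 13.1-fold higher at MI 7 d (log2 fold change 3.71, edgeR adjusted p = 2.09e-06).

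Serum response factor (SRF) and its MRTF coactivators also act on Cyr61 and Ctgf. Of 13 SRF/MRTF factors and targets, 5 were higher and 4 lower at MI 28 d, and 6 were higher and 5 lower at MI 7 d, each against sham, with medians of -0.05 and 0.02. Contractile targets were among those higher, with Cnn1 at 5.76-fold (MI 28 d) and 12.2-fold (MI 7 d) and Tagln at 3.28-fold (MI 28 d) and 10.1-fold (MI 7 d). The immediate early gene Fos was 5.72-fold lower at MI 28 d (log2 fold change -2.52, edgeR adjusted p = 8.02e-05), and Fhl2, a LIM protein of muscle, was 5.86-fold lower at MI 7 d (-2.55, edgeR adjusted p = 7.57e-06).

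WISP1 belongs to the responses to Wnt. Of 13 genes listed as canonical Wnt targets, feedback regulators or family relatives of these, 9 were tested. Against sham, 6 were higher and 0 lower at MI 28 d, and 6 were higher and 1 lower at MI 7 d (median log2 fold changes 1.95 and 3.15). The lower gene was Znrf3 (log2 fold change -0.55, edgeR adjusted p = 0.0104). Lef1, Notum, Rnf43 and Sp5 did not pass the filter on low counts. Znrf3 and these genes were named after their values were seen. Dkk3, a secreted protein of the Dickkopf family, was 29.1-fold higher at MI 28 d and 39.7-fold higher at MI 7 d (log2 fold changes 4.86 and 5.31, edgeR adjusted p = 1.35e-06 and 1.06e-07). Nkd2, an inhibitor of Wnt signalling, was 17.8-fold higher at MI 7 d (log2 fold change 4.15, edgeR adjusted p = 2.13e-07). Axin2, the feedback gene used most often as a Wnt reporter, averaged 12.14 ± 10.1 CPM at MI 28 d and 4.141 ± 1.89 CPM at MI 7 d, against 5.288 ± 0.82 CPM in sham (SD, n = 3 each). It did not pass at either time (edgeR adjusted p = 0.0806 at MI 28 d and 0.574 at MI 7 d) and was named after its values were seen.

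**Figure D5:**
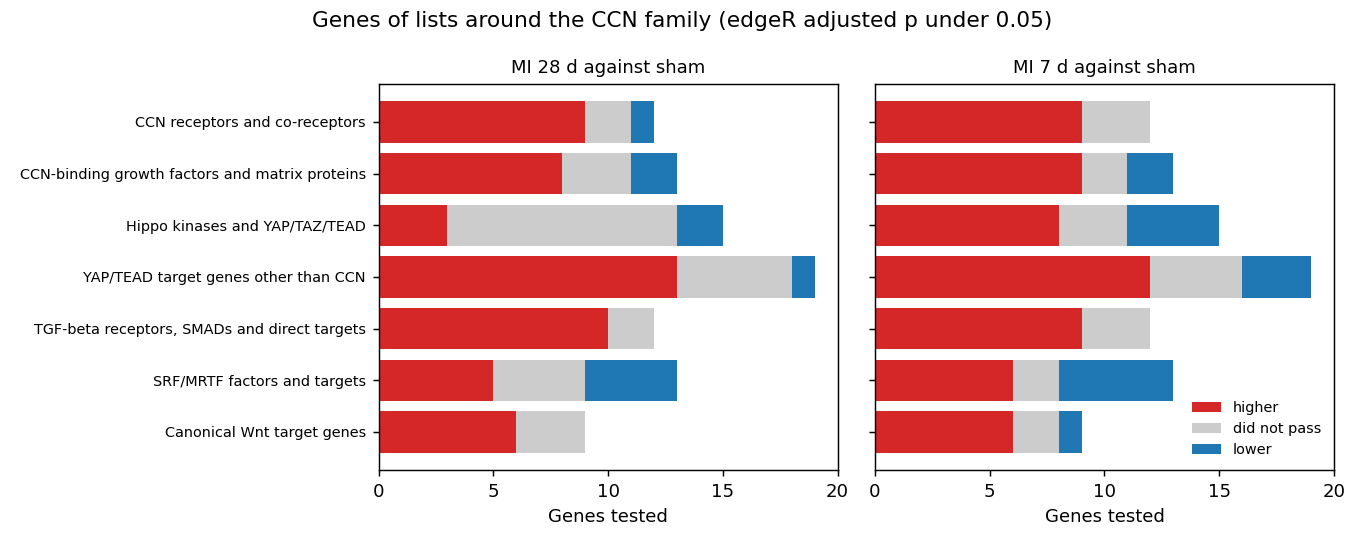
Number of tested genes in each of 7 lists around the CCN family that were higher (red), did not pass (grey) or were lower (blue), with MI 28 d against sham on the left and MI 7 d against sham on the right. The receptor, CCN-binding, TGF-beta, YAP/TEAD target and Wnt target lists are mostly red at both times. The Hippo list is mostly grey at 28 d, where 10 of 15 genes did not pass.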

How the data were processed

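A KAPA HyperPrep kit turned total RNA into libraries, per the labels' protocols, and the submitters' processing notes name Trim Galore, STAR, featureCounts and mm10. Neither annotation nor strand setting nor versions are stated there. The deposited values are whole-number read counts per gene symbol, not normalized. All 9 libraries were kept. Even the sham libraries, the most alike, did not agree within counting error (chi-square 1.67 to 1.8 per degree of freedom, against 18.8 to 71.2 within the infarct groups). This check can find the same library counted again. It cannot tell separate mice from separate libraries of the same RNA, so the sham libraries are separate mice by their labels only.

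Tests used R 4.3.3 and edgeR 4.0.16 (filterByExpr, minimum count 10 and total 15, TMM, quasi-likelihood, 1 coefficient per group, all 9 libraries). They were tried on simulated data with few changed genes, balanced in direction, and the same spread in every group. The real data have many changed genes and groups of unequal spread, which that trial does not cover. SE was taken as the size of the log2 fold change divided by root F. Alternatives were DESeq2 1.42.0, limma 3.58.1 voom with group weights, other scalings and filters, fits of the compared groups, a replicate block, summed sham libraries, and leaving out each library or the 3 with over 100 CPM of Adipoq. Named pathway genes are up to 3 called genes with the largest change per list and time, printed in part, plus Yap1, Wwtr1 and the TEAD genes. Members and lists were chosen with earlier results of these data known. Some results are not reported here.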

Additional observations from a re-analysis of the deposited data

Results flagged for a closer look

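All 5 tested CCN genes differed in their infarct effect between the times, tested as MI 28 d against MI 7 d because both effects share the sham libraries. The log2 fold changes were -0.56 for Cyr61, -0.46 for Ctgf, -1.34 for Nov, -2.77 for Wisp1 and -1.45 for Wisp2. Those of Cyr61 and Ctgf did not pass without the Adipoq-rich libraries.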

How the results depend on the processing

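For the 15 log2 fold changes of CCN genes, 268 of 285 values under 19 alternatives kept direction and call, and none changed sign. In 4 results the call was lost somewhere. For MI 28 d against sham, summing the sham libraries gave 0.53 for Cyr61 and 2.07 for Nov (edgeR adjusted p = 0.232 and 0.0693). For MI 28 d against MI 7 d, values that did not pass were -0.60 for Cyr61 and -0.51 for Ctgf with only the compared groups, -0.56 for Cyr61 and -0.47 for Ctgf with summed sham libraries, and -0.30 for Cyr61 and -0.21 for Ctgf without Adipoq-rich libraries. Leaving out single libraries gave 0.34 to 0.73 for Cyr61 at MI 28 d against sham, and -0.78 to -0.39 for Cyr61 and -0.62 to -0.36 for Ctgf at MI 28 d against MI 7 d. At MI 28 d against sham, 4233 genes were higher and 3673 lower, against 6479 and 2278 with library size alone and 1828 and 1889, in all 3717 rather than 7906, with summed sham libraries, which also called 42 of the pathway genes, not 64, with 35 higher, not 54. Wwtr1 at MI 7 d against sham was 0.18 with library size alone (edgeR adjusted p = 0.0329). At MI 28 d against sham, Yap1 (0.02) and Wwtr1 (0.03) did not pass and became -0.0131 and -0.0044 with DESeq2, -0.0129 and -0.0043 with its size factors, and -0.0152 and -0.0059 with summed sham libraries. Leaving out single libraries there gave -0.0274 to 0.0634 for Yap1 and -0.0113 to 0.0608 for Wwtr1. The cause was not tested; summing or leaving out libraries leaves fewer of them. Replicate numbers did not pair the libraries (correlation of same-numbered deviations -0.091 to 0.304), and the replicate block changed no call of a CCN gene (Nov at MI 28 d against sham 2.03, edgeR adjusted p = 0.00796). At these depths Wisp3 could not be compared.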
